A study of Homo sapiens with 6 samples.

Results

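The genes described here encode the vascular endothelial growth factors (VEGF) VEGFA, VEGFB and VEGFC, the VEGF receptor FLT1, the angiopoietin receptor TEK, its relative TIE1 and the endothelial adhesion molecule PECAM1. They were taken from the deposited expression table by gene name: 7 of the 8 named genes were found among 17911 listed genes, and ANGPT1, the angiopoietin that activates TEK, was not analysed here. VEGFA, FLT1, TEK and PECAM1 had been picked for their change between the genotypes, so their differences are given as a description with no test. VEGFB, VEGFC and TIE1 had not been picked in that way, and their tests are given.

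RNA was sequenced from LX-2 cells, an immortalised line of human hepatic stellate cells, the pericyte-like cells that wrap the liver's sinusoidal vessels and make matrix after injury. The mutant libraries (n = 3) came from LX-2 cells with a mutation in exon 3 of MPI, and the WT libraries (n = 3) from LX-2 cells of wild-type genotype. MPI encodes mannose phosphate isomerase, which links glycolysis to the mannose used in protein glycosylation. Both genotypes grew in the same serum-containing medium. The labels do not say what the mutation is, whether the mutant cells are 1 clone, or whether a genotype's libraries are separate cultures. The p-values therefore reflect only how far these libraries differ, and that spread may be technical. MPI itself measured 1051, 978 and 1035 in the mutant libraries and 1292, 1283 and 1256 in the WT libraries, and fell (log2 fold change -0.32 ± 0.066, limma adjusted p = 0.00648). These are counts over the whole gene, which do not show the exon's sequence.

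VEGF ligands are secreted proteins that bind receptor tyrosine kinases on endothelial cells. VEGFA acts through KDR, the main signalling receptor of vessel growth, and VEGFC chiefly through FLT4, the receptor of lymphatic vessels. FLT1 binds VEGFA, VEGFB and placental growth factor tightly but signals weakly, and a soluble form of it traps ligand. Neuropilins hold VEGF ligands at the receptors. Angiopoietins act on TEK (also called TIE2), which steadies mature vessels, while TIE1 has no well-established ligand of its own and modulates TEK. In the liver, stellate cells are a source of VEGFA for the neighbouring sinusoidal endothelium.

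Levels below are normalised read counts, the reads of a gene divided by a size factor per library, with means ± SD over the 3 libraries of each genotype (n = 3). Recovered reads per library ranged from 31966756 to 34970840 in the mutant and from 27037905 to 33991848 in WT. Each log2 fold change is the mutant minus the WT mean of log2(value + 1), given ± SE, and a gene rose or fell where limma-trend's adjusted p over all 17893 tested genes was under 0.05. By this rule 32.6% of tested genes changed, 16.0% rising and 16.6% falling. Values of the 2 genotypes did not overlap for 46.7% of tested genes and for 6 of the 7 genes described here, all but TIE1, and nothing is read from that count because 4 of them had been picked. The library numbered 1 of each genotype stood apart from those numbered 2 and 3, and the share of all tested genes that changed was 49.8% with the replicate number as a block, 48.7% without mutant replicate 1 and 54.6% without both libraries numbered 1.

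VEGFA had the largest difference of the 3 ligands and was higher in the mutant. VEGFA (ENSG00000112715, chromosome 6, 43770184 to 43786487, plus strand, GRCh38) measured 4865, 5547 and 5110.4 in the mutant libraries, against 1694, 1819 and 1682 in the WT libraries. Every mutant library lay above every WT library, with a wide gap between the genotypes and little spread within each. The means were 5174 ± 346 in the mutant and 1732 ± 75.4 in WT, 2.99-fold higher in the mutant, with a log2 fold change of 1.58 ± 0.072. In bulk RNA, a larger share of cells that express a gene and more of its RNA per cell cannot be told apart. Ratios within library numbers were 2.87, 3.05 and 3.04 for numbers 1 to 3.

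VEGFB, a ligand of FLT1 tied to fatty acid handling, and VEGFC, the lymphatic growth factor, were slightly lower in the mutant. VEGFB (ENSG00000173511, chromosome 11, 64234538 to 64238793, plus strand) measured 1941, 1973 and 2077 in the mutant libraries, against 2201, 2122 and 2140.2 in the WT libraries. The groups did not overlap, and the log2 fold change of -0.11 ± 0.062 did not pass (limma adjusted p = 0.206). VEGFC (ENSG00000150630, chromosome 4, 176683538 to 176792727, minus strand) measured 1627, 1644 and 1688 in the mutant libraries, against 1781, 1853 and 1865 in the WT libraries. All 3 mutant values lay below all 3 WT values, with a narrow gap. Its log2 fold change was -0.15 ± 0.061 (limma adjusted p = 0.0941), and the call depended on the fit: the adjusted p was 0.0350 with the replicate block and 0.0122 without both libraries numbered 1, while edgeR with the replicate block gave an adjusted p of 0.0553. AC093801.1, which overlaps VEGFC on the other strand, averaged 10.5 in the mutant and 12.2 in WT. The sources used here do not say whether reads were counted by strand.

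**Figure D1:**
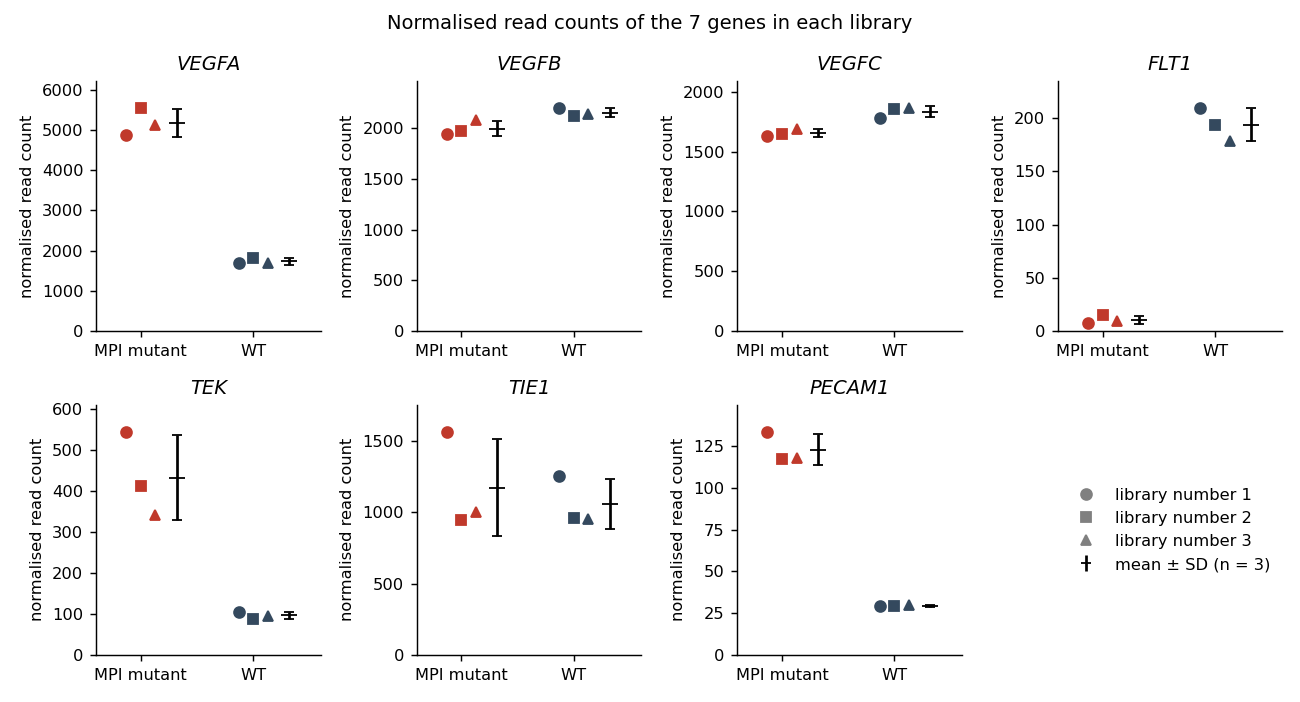
Normalised read counts (y axis, from 0) of the 7 genes in the 3 MPI mutant and 3 WT libraries. Marker shapes give the library number and bars the mean ± SD. VEGFA, TEK and PECAM1 are higher in every mutant library, FLT1 is lower in every mutant library, and TIE1 overlaps between genotypes and is highest in the libraries numbered 1.

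Placental growth factor, PGF, which binds FLT1, measured 186, 191 and 208 in the mutant libraries and 164, 168 and 156 in the WT libraries (log2 fold change 0.26 ± 0.11, limma adjusted p = 0.113). VEGFD was not analysed here. To compare levels between genes, each was divided by the length of its longest protein-coding transcript in GENCODE release 29. Per kb of transcript, the 4 measured ligands summed to 3813 ± 126 in the mutant and 3024 ± 13.04 in WT. VEGFA made up 38.4% ± 1.67 in the mutant and 16.2% ± 0.640 in WT. VEGFB made up 37.96% ± 1.11 in the mutant and 51.6% ± 1.08 in WT, and VEGFC 21.01% ± 0.529 in the mutant and 29.4% ± 0.746 in WT. VEGFB was thus the most abundant ligand per length in WT, while in the mutant VEGFA and VEGFB had overlapping levels of 1464 ± 97.8 and 1447 ± 51.5 per kb. The sum and these shares depend on the length used. With the union of all annotated exons, VEGFA has 14431 bp in place of 3535 bp. The sum was then 2367 ± 67.1 in the mutant and 2299 ± 6.12 in WT, so the genotypes were much closer. By that length VEGFA made up 15.1% in the mutant and 5.22% in WT, and VEGFB led in both genotypes.

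**Figure D2:**
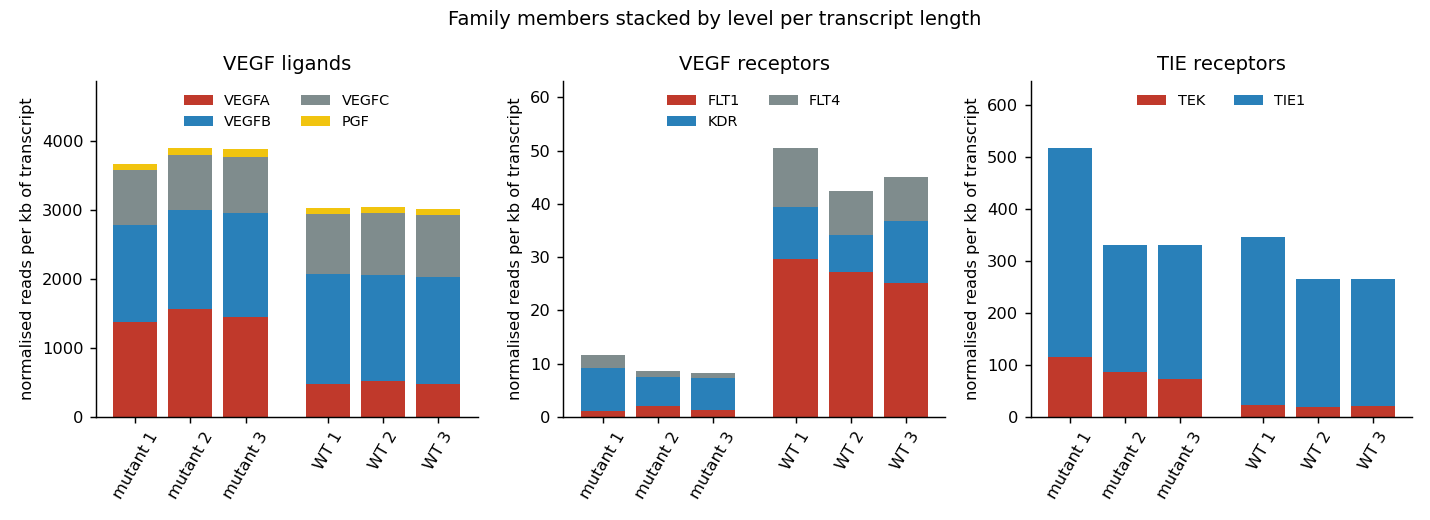
Levels per kb of the longest protein-coding transcript (y axis, normalised reads per kb) stacked by gene for the VEGF ligands, the VEGF receptor tyrosine kinases and the TIE receptors in each of the 6 libraries. VEGFA widens in the mutant ligand bars, FLT1 nearly leaves the mutant receptor bars, and TEK takes a larger part of the mutant TIE bars.

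FLT1 was the gene of the 7 with the largest difference, and it was lower in the mutant. FLT1 (ENSG00000102755, chromosome 13, 28300344 to 28495145, minus strand) measured 7.43, 15.00 and 9.21 in the mutant libraries, against 209.6, 193 and 178 in the WT libraries. Every mutant library lay far below every WT library. The means were 10.5 ± 3.96 in the mutant and 194 ± 15.6 in WT, 18.4-fold higher in WT, with a log2 fold change of -4.13 ± 0.26. The mutant level rests on 33 reads over the 3 libraries, and the fitted change was -3.70 with a pseudocount of 5. The 2 other VEGF receptor tyrosine kinases were low in both genotypes. FLT4, the VEGFC receptor, had 13.9, 6.56 and 6.14 in the mutant libraries and 64.4, 47.7 and 48.9 in the WT libraries, and fell by 2.54 ± 0.34 on the log2 scale (limma adjusted p = 7.59e-04). KDR, the main VEGFA receptor, had 49.2, 32.8 and 35.8 in the mutant libraries and 59.9, 41.9 and 70.1 in the WT libraries. These ranges overlapped, and KDR did not pass (limma adjusted p = 0.149), although its adjusted p was 0.0479 with the replicate block. It also passed as lower in edgeR with the block, without mutant replicate 1 and without both libraries numbered 1. Its lowest limma or edgeR adjusted p was 0.0386. Summed per kb, the 3 kinases came to 9.49 ± 1.79 in the mutant and 45.95 ± 4.13 in WT. FLT1 made up 16.4% ± 7.71 in the mutant and 59.6% ± 4.38 in WT of this sum, and KDR 68.2% ± 4.86 in the mutant and 20.5% ± 4.73 in WT.

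Both neuropilin co-receptors rose. NRP1, neuropilin-1, measured 11957, 11900.3 and 11346 in the mutant libraries and 6244, 6978 and 6264 in the WT libraries (log2 fold change 0.85 ± 0.070, limma adjusted p = 6.61e-05). NRP2, neuropilin-2, measured 7231, 4854 and 4404 in the mutant libraries and 2484, 2197 and 2059 in the WT libraries (log2 fold change 1.26 ± 0.17, limma adjusted p = 8.42e-04). Neither gene's groups overlapped. Per kb of transcript, NRP1 averaged 1995 in the mutant and 1104 in WT, above each VEGF receptor kinase in both genotypes.

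TEK, the angiopoietin receptor, was higher in the mutant, while the genotypes overlapped for TIE1. TEK (ENSG00000120156, chromosome 9, 27109141 to 27230175, plus strand) measured 546, 412 and 343 in the mutant libraries, against 105, 88.5 and 95.6 in the WT libraries. All mutant values lay above all WT values, and the mutant values were the more spread. The means were 433 ± 103 in the mutant and 96.4 ± 8.42 in WT, 4.49-fold higher in the mutant, with a log2 fold change of 2.13 ± 0.17. TIE1 (ENSG00000066056, chromosome 1, 43300993 to 43323108, plus strand) measured 1564, 948 and 1004 in the mutant libraries and 1256, 959 and 951 in the WT libraries. The groups overlapped, and the library numbered 1 was the highest of its genotype in both. Its log2 fold change was 0.13 ± 0.19 (limma adjusted p = 0.654), from -0.10 without mutant replicate 1 to 0.26 without mutant replicate 2, and the adjusted p was 0.152 with the replicate block. TIE1 was still the more abundant of the pair: per kb, TEK made up 23.4% ± 2.42 in the mutant and 6.99% ± 0.591 in WT of their sum. PTPRB, a phosphatase that dampens TEK, had 581, 411 and 348 in the mutant libraries and 616, 537 and 501 in the WT libraries (limma adjusted p = 0.189, and 0.00678 with the replicate block, under which it fell). ANGPT4, an angiopoietin, was near the lower end of the table at 19.7 ± 5.66 in the mutant and 23.04 ± 7.12 in WT (limma adjusted p = 0.674), and ANGPT2 was not analysed here.

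Stretches before the first annotated start of 3 receptor genes are printed because their values took different courses: FLT1 was lower in the mutant, TEK was higher, and TIE1 overlapped between genotypes. They are RefSeq promoter sequences on build GRCh38.p14, read 5′ to 3′ on the gene's strand, and end before the first base transcribed in RefSeq or GENCODE release 29. They lie at chr13:28495146-28495378 (minus strand), chr9:27108975-27109140 (plus strand) and chr1:43300732-43300981 (plus strand). Capitals mark matches on either strand to the motifs TGACGTCA (cyclic AMP response element), ACGTG and its variant GCGTG (hypoxia response core), GGGCGG (the GC box), TATAAA (the TATA box), GGAAGT and its variant GGAAGC (ETS core), TGANTCA (AP-1) and GGAATG (TEAD). No capitals overlap between motifs.
FLT1: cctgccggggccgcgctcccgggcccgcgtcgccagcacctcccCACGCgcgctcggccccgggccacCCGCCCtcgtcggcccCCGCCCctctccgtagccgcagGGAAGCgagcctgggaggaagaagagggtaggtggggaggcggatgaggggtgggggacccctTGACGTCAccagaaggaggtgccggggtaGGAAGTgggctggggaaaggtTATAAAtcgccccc
TEK: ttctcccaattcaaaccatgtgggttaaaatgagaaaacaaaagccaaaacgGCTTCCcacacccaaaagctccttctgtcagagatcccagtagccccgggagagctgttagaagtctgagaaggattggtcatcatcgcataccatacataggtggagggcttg
TIE1: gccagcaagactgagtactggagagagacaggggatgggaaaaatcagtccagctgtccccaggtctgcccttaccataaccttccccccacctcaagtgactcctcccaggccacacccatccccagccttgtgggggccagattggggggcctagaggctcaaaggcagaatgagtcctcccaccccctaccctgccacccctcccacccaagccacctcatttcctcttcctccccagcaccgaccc
Of the 7 genes, 5 had an entry in the promoter table, and VEGFA and PECAM1 had none. The FLT1 stretch holds TGACGTCA, whose first base lies 64 bases before the first annotated start, and TATAAA, 14 bases before it. In the 250 bases before the RefSeq start, TGACGTCA was found in 1.65% and TATAAA in 10.7% of 35116 promoters, and among the 5 genes only FLT1 had either. The hypoxia response core, held by 43.2% of promoters, had 1 match each in FLT1, VEGFB and VEGFC and 0 in TEK and TIE1. TIE1 had 0 matches to all 7 motifs. A match describes letters and is not evidence of binding.

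PECAM1 (ENSG00000261371, chromosome 17, 64319415 to 64413776, minus strand), the adhesion molecule of endothelial junctions and platelets, measured 134, 117 and 118 in the mutant libraries, against 29.04, 29.1 and 29.7 in the WT libraries. The genotypes were far apart. The 3 WT values were nearly equal but rest on 32, 25 and 28 reads, so their closeness is no measure of precision. The means were 123 ± 9.36 in the mutant and 29.3 ± 0.387 in WT, 4.19-fold higher in the mutant, with a log2 fold change of 2.03 ± 0.16. It remained low per length, at 17.99 ± 1.37 per kb in the mutant and 4.29 ± 0.0566 per kb in WT. In the mutant, 17.2% of listed genes with a length were at or below its level, and in WT 2.81%.

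Ordered by level per kb, the 7 genes ran VEGFA, VEGFB, VEGFC, TIE1, TEK, PECAM1 and FLT1 in the mutant, with only VEGFA and VEGFB overlapping between neighbours. In WT the order was VEGFB, VEGFC, VEGFA, TIE1, FLT1, TEK and PECAM1, with no neighbours overlapping. FLT1 had 1.49 ± 0.559 per kb in the mutant and 27.3 ± 2.20 per kb in WT, and TEK 91.1 ± 21.7 per kb in the mutant and 20.3 ± 1.77 per kb in WT. Both orders depend on the length used. With the union of annotated exons, VEGFB and VEGFC lay above VEGFA in the mutant too, VEGFA lay below TIE1 in WT, and FLT1, at 0.839 ± 0.315 per kb in the mutant and 15.4 ± 1.24 per kb in WT, lay below TEK in WT, where TEK had 20.1 ± 1.75 per kb.

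Several of these genes mark endothelial cells, so other endothelial markers were examined. Besides FLT1, TEK, TIE1 and PECAM1, 11 of 24 markers, KDR and FLT4 among them, were in the table, and 13, among them CDH5, ERG and CLDN5, were not analysed here. Of the 11, 0 rose and 2 fell, beside 32.6% of all tested genes called. Their median log2 fold change was -0.36, and their summed level ranged over 991 to 1309 in the mutant and 1625 to 1739 in WT. The count grew to 1 that rose and 6 that fell with the replicate block, beside 49.8% of all tested genes called. It was 2 that rose and 3 that fell both without mutant replicate 1 and without both libraries numbered 1, beside 48.7% and 54.6%. The gene that rose with the block was NOS3, the endothelial nitric oxide synthase gene, at 107 ± 28.3 in the mutant and 69.6 ± 9.55 in WT (limma adjusted p = 0.0813, and 0.00583 with the replicate block). EGFL7, a secreted endothelial factor, fell, with 388 ± 20.9 in the mutant and 756 ± 23.3 in WT (log2 fold change -0.96 ± 0.082, limma adjusted p = 7.64e-05), and FLT4 was the other. S1PR1, the sphingosine 1-phosphate receptor, measured 282 ± 71.2 in the mutant and 333 ± 35.9 in WT and did not pass (limma adjusted p = 0.317, and 0.0473 with the replicate block, under which it fell). VWF, von Willebrand factor, had 18.6, 20.6 and 15.4 in the mutant libraries and 25.4, 17.5 and 25.5 in the WT libraries, and the ranges overlapped. Of 16 stellate and fibroblast markers, 13 were in the table, and DES, LRAT and DCN were not analysed here. Of the 13, 2 rose and 7 fell, or 69.2% called, beside 32.6% of all tested genes. Leaving out 1 library gave 1 or 2 rises and 3 to 7 falls, and the fewest falls came without WT replicate 2. In that fit 1864 of all tested genes rose and 2036 fell, against 2866 and 2963 in the reported fit. The 7 falls came without mutant replicate 1, beside 48.7% of all tested genes called. Highest were VIM, the vimentin gene, which rose to 104043 ± 4308 in the mutant, against 86290.5 ± 4674 in WT, a call lost on leaving out any of 4 single libraries (limma adjusted p up to 0.134), and the collagen gene COL1A1, at 43863 ± 12042 in the mutant and 36688 ± 1605 in WT, which did not pass. The other gene that rose was TIMP1, with 9832 ± 1618 in the mutant and 5092 ± 425 in WT. Its log2 fold change was 0.94 ± 0.12 (limma adjusted p = 7.91e-04), and no alternative changed its call. The falls included THY1, a fibroblast surface antigen gene, with 15.1 ± 5.99 in the mutant and 461 ± 18.8 in WT. ACTA2, the smooth muscle actin gene of activated stellate cells, fell too, with 284 ± 5.70 in the mutant and 559 ± 60.6 in WT. LUM, the lumican gene, fell to 0.963 ± 0.0525 in the mutant, under the value of 3 reads, against 38.9 ± 3.83 in WT. Of hepatocyte, leukocyte and epithelial markers, 3 of 12, 5 of 11 and 3 of 6 were in the table, with summed levels of 155 to 208, 339 to 372 and 2710.4 to 3257 in the mutant and 264 to 288, 525 to 605 and 1921 to 2155 in WT. Of these, 0 rose and 1 fell among hepatocyte markers, 3 rose and 1 fell among leukocyte markers, and 1 rose and 0 fell among epithelial markers. These counts are 33.3%, 80% and 33.3% called, of few genes each, beside 32.6% of all tested genes. Among leukocyte markers, the lysozyme gene LYZ rose to 20.02 ± 7.59 in the mutant, against 2.00 ± 0.786 in WT, under the value of 3 reads. The macrophage receptor gene CSF1R rose to 47.4 ± 4.43 in the mutant, against 24.7 ± 3.94 in WT, and the lysosomal gene CD68 to 106 ± 32.4 in the mutant, against 61.02 ± 6.26 in WT. The CD68 call was lost on leaving out any 1 library other than mutant replicate 1 (limma adjusted p up to 0.144). CD14, a monocyte co-receptor gene, fell to 129 ± 5.51 in the mutant, against 427 ± 41.1 in WT, and the pan-leukocyte gene PTPRC measured 56.6 ± 24.3 in the mutant and 56.6 ± 2.85 in WT and did not pass. The epithelial gene that rose was SOX9, a transcription factor gene, with 2845 ± 256 in the mutant and 1777 ± 103 in WT. The part of other cell types in the PECAM1 and TEK differences was not tested.

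Among other secreted factors that act on vessels, genes went both ways. Of 26 measured members, 6 rose and 8 fell, or 53.8% called, beside 32.6% of all tested genes. Their median log2 fold change was -0.050, against -0.0031 over all tested genes. With the replicate block 7 rose and 11 fell, beside 49.8% of all tested genes. Without both libraries numbered 1, 9 rose and 9 fell, beside 54.6%. Without mutant replicate 2, 5 rose and 6 fell. In that fit 1749 of all tested genes rose and 2115 fell, against 2866 and 2963 in the reported fit. CXCL12, a chemokine that guides endothelial and immune cells, rose, with 29381, 30035 and 29742 in the mutant libraries and 7238, 11001 and 11339 in the WT libraries (log2 fold change 1.62 ± 0.16, limma adjusted p = 1.60e-04). PDGFB, which recruits pericytes to vessels, fell, with 95.6, 88.1 and 102 in the mutant libraries and 759.5, 777 and 783 in the WT libraries (log2 fold change -3.01 ± 0.10, limma adjusted p = 1.36e-06). SEMA3F, a semaphorin that binds NRP2, fell, with 50.3 ± 7.88 in the mutant and 305 ± 22.3 in WT (limma adjusted p = 1.40e-05). HGF, the hepatocyte growth factor, had the largest rise on this list, with 241 ± 20.97 in the mutant and 7.51 ± 1.96 in WT (log2 fold change 4.86 ± 0.23, limma adjusted p = 5.12e-06). SLIT2, a guidance ligand, was the most abundant that did not pass, at 8725 ± 1957 in the mutant and 7748 ± 489.5 in WT (limma adjusted p = 0.447).

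Of inhibitors of vessel growth, 10 of 15 were measured, and 2 rose and 3 fell (median -0.19), or 50% called, beside 32.6% of all tested genes. Of the 2 rises 1, TIMP2, was lost on leaving out any 1 library other than mutant replicate 1. Both without mutant replicate 1 and without both libraries numbered 1, 2 rose and 5 fell, beside 48.7% and 54.6% of all tested genes called. TIMP3, a metalloprotease inhibitor that also blocks VEGFA at KDR, fell, with 1585 ± 377 in the mutant and 4538 ± 651 in WT (log2 fold change -1.53 ± 0.16, limma adjusted p = 2.47e-04). ADAMTS1, a protease that binds VEGFA, and COL18A1, the precursor of endostatin, fell by 0.64 and 0.51 on the log2 scale (limma adjusted p = 0.00595 and 0.00425). ANGPTL4, a lipoprotein lipase inhibitor with vascular effects that depend on context, rose, with 154, 547 and 545 in the mutant libraries and 22.7, 39.6 and 40.4 in the WT libraries (log2 fold change 3.40 ± 0.47, limma adjusted p = 9.88e-04). It was lowest in the library numbered 1 of each genotype. TIMP2 rose by 0.23 (limma adjusted p = 0.0317), and SPARC, the most abundant that did not pass, measured 27964 ± 3922 in the mutant and 26566 ± 946 in WT.

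Of 21 measured adaptors and kinases downstream of VEGF receptors, 4 rose and 5 fell (median -0.076), or 42.9% called, beside 32.6% of all tested genes. With the replicate block 7 rose and 5 fell, beside 49.8% of all tested genes. Without mutant replicate 2, 2 rose and 5 fell. In that fit 1749 of all tested genes rose and 2115 fell, against 2866 and 2963 in the reported fit. SPHK1, sphingosine kinase 1, rose, with 2315 ± 664 in the mutant and 975 ± 57.9 in WT (log2 fold change 1.20 ± 0.20, limma adjusted p = 0.00222). The focal adhesion gene PXN rose by 0.42 and the focal adhesion kinase gene PTK2 fell by 0.43 on the log2 scale (limma adjusted p = 0.00922 and 0.00121). PRKD1, protein kinase D1, fell by 0.53 (limma adjusted p = 0.00199), and the adaptor SHC1, at 10634 ± 269 in the mutant and 11064 ± 500.2 in WT, did not pass (limma adjusted p = 0.552).

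**Figure D3:**
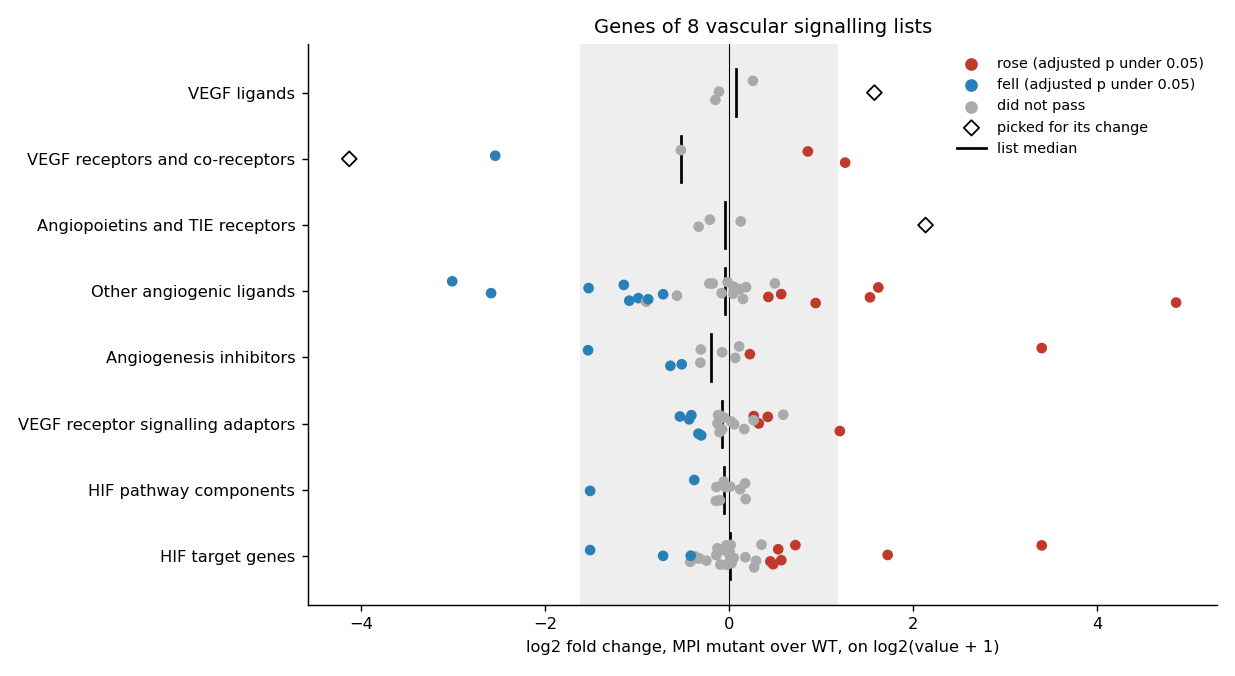
Log2 fold change, mutant over WT (x axis), of each tested gene in 8 lists of vascular signalling genes. Red genes rose, blue genes fell and grey genes did not pass, open diamonds are the genes picked for their change, black lines are list medians, and the shaded band holds the middle 95% of all tested genes, from -1.61 to 1.17. Of the VEGF, VEGF receptor and angiopoietin lists, FLT1 and FLT4 lie left of the band and VEGFA, TEK and NRP2 right of it, and genes of other lists, such as PDGFB and HGF, lie outside it too.

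VEGFA is a textbook target of the hypoxia-inducible factors (HIF), transcription factors that are destroyed when oxygen is plentiful, after hydroxylation by EGLN enzymes and capture by VHL. Of 11 measured HIF pathway components, 0 rose and 2 fell, or 18.2% called, beside 32.6% of all tested genes. With the replicate block 2 rose and 3 fell, beside 49.8% of all tested genes, and 2 rose and 5 fell without both libraries numbered 1, beside 54.6%. HIF1A itself measured 21604 ± 1749 in the mutant and 19106 ± 2036 in WT and did not pass (limma adjusted p = 0.205), but its adjusted p was 0.0103 with the replicate block and 0.00589 without both libraries numbered 1, where it rose. VHL fell, with 2268, 1896 and 1978 in the mutant libraries and 2694, 2691 and 2583 in the WT libraries (log2 fold change -0.38 ± 0.079, limma adjusted p = 0.00717). The other gene that fell, EGLN3, was low, at 5.79 ± 2.84 in the mutant and 17.7 ± 5.81 in WT (limma adjusted p = 0.0290), and its call was lost without mutant replicate 3, WT replicate 1 or WT replicate 2 (adjusted p up to 0.114).

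Of 31 measured HIF targets other than VEGFA, 7 rose and 3 fell, which is 32.3% called, beside 32.6% over all tested genes, and the median log2 fold change was 0.0045. Apart from ANGPTL4, the larger rises were CA12, a carbonic anhydrase gene, with 144 ± 44.6 in the mutant and 42.7 ± 10.4 in WT (log2 fold change 1.72 ± 0.26, limma adjusted p = 0.00166), and PFKFB4, a glycolytic regulator, with 1328 ± 189 in the mutant and 803 ± 72.5 in WT (log2 fold change 0.72 ± 0.11, limma adjusted p = 0.00194). ADM, adrenomedullin, and ZNF395 fell by 0.72 and 0.42 on the log2 scale (limma adjusted p = 0.0393 and 0.0359). ENO1, a glycolytic enzyme gene, measured 68259 ± 5631 in the mutant and 75023 ± 994 in WT and did not pass (limma adjusted p = 0.240). The calls of ADM and ZNF395 were lost on leaving out some single libraries (adjusted p up to 0.127 and 0.133). Of the HIF targets, 10 rose and 6 fell with the replicate block, beside 49.8% of all genes called, 7 rose and 11 fell without mutant replicate 1, beside 48.7%, and 10 rose and 14 fell without both libraries numbered 1, beside 54.6%. Leaving out any 1 of the other 5 libraries gave 6 or 7 rises and 0 or 1 falls. Fewer of all tested genes were called in these fits too. Over all tested genes, 1749 to 2109 rose and 2036 to 2356 fell, against 2866 and 2963 in the reported fit.

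The libraries numbered 1 were also set against numbers 2 and 3 within genotype, a comparison chosen after the data were examined, with 2 libraries against 4. In it 12.4% of tested genes were higher and 15.9% lower in the libraries numbered 1 (limma adjusted p under 0.05). Of the 31 HIF targets, 17 were higher and 2 lower, with a median log2 difference of 0.31. VEGFA differed by -0.088 ± 0.056 (limma adjusted p = 0.253), and VEGFB and VEGFC by -0.0069 ± 0.053 (limma adjusted p = 0.938) and -0.048 ± 0.052 (limma adjusted p = 0.529), so none of the 3 ligands passed. TIE1 was higher in the libraries numbered 1 by 0.54 ± 0.069 (limma adjusted p = 7.13e-05), TEK by 0.37 ± 0.12 (limma adjusted p = 0.0347) and PTPRB by 0.43 ± 0.10 (limma adjusted p = 0.00434). PECAM1 differed by 0.083 ± 0.17 (limma adjusted p = 0.757) and FLT1 by -0.21 ± 0.24 (limma adjusted p = 0.541). Of other genes named above, NRP2 differed by 0.43 ± 0.088 (limma adjusted p = 0.00542), TIMP3 by 0.45 ± 0.056 (limma adjusted p = 5.74e-05), ADM by 0.65 ± 0.070 (limma adjusted p = 1.67e-05) and COL18A1 by 0.20 ± 0.058 (limma adjusted p = 0.0173). ANGPTL4 differed by -1.30 ± 0.19 (limma adjusted p = 4.22e-04), SPHK1 by -0.47 ± 0.13 (limma adjusted p = 0.0416) and PXN by -0.21 ± 0.049 (limma adjusted p = 0.00569). Without both libraries numbered 1, the log2 fold changes between the genotypes were 1.61 for VEGFA, 2.02 for TEK, 1.96 for PECAM1 and -3.87 for FLT1.

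**Figure D4:**
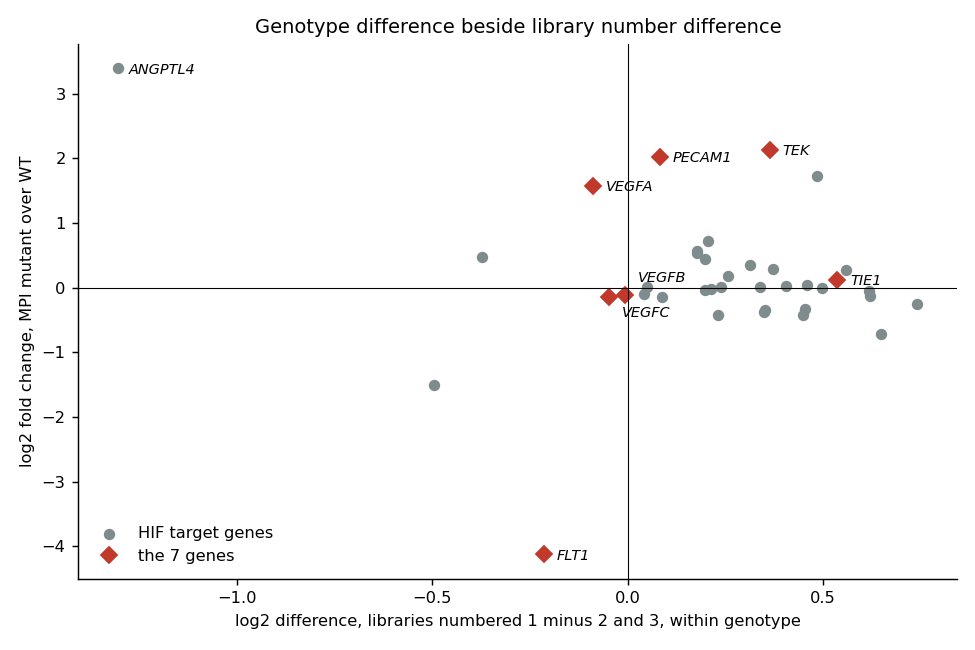
Log2 fold change between genotypes (y axis, mutant over WT) against the log2 difference of libraries numbered 1 from numbers 2 and 3 (x axis) for the 7 genes (diamonds, named) and 31 HIF target genes (circles). Most HIF targets lie to the right near a genotype difference of 0, but some lie far from it, such as ANGPTL4 at 3.40 and CA12 at 1.72. VEGFA, which had been picked for its change, lies near 0 on the x axis and at 1.58 on the y axis. The part of HIF in its difference was not tested.

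The genes most like each picked gene were found by the root mean square difference, over the 6 libraries, of log2(value + 1) minus its WT mean. For VEGFA they were MYEOV, NET1 and LRRIQ1, at differences from 0.0839 to 0.113 on the log2 scale. MYEOV averaged 493 ± 7.41 in the mutant and 163 ± 7.32 in WT. For FLT1 they were PHYHD1, NLRP2 and FGD5 (0.123 to 0.255), of which NLRP2 averaged 25.7 ± 8.06 in the mutant and 501 ± 7.47 in WT. TEK was most like TENM4, AC245100.4 and AC112721.2 (0.114 to 0.140), and PECAM1 most like XYLT1, LINC01419 and EPHB6 (0.109 to 0.127).

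**Figure D5:**
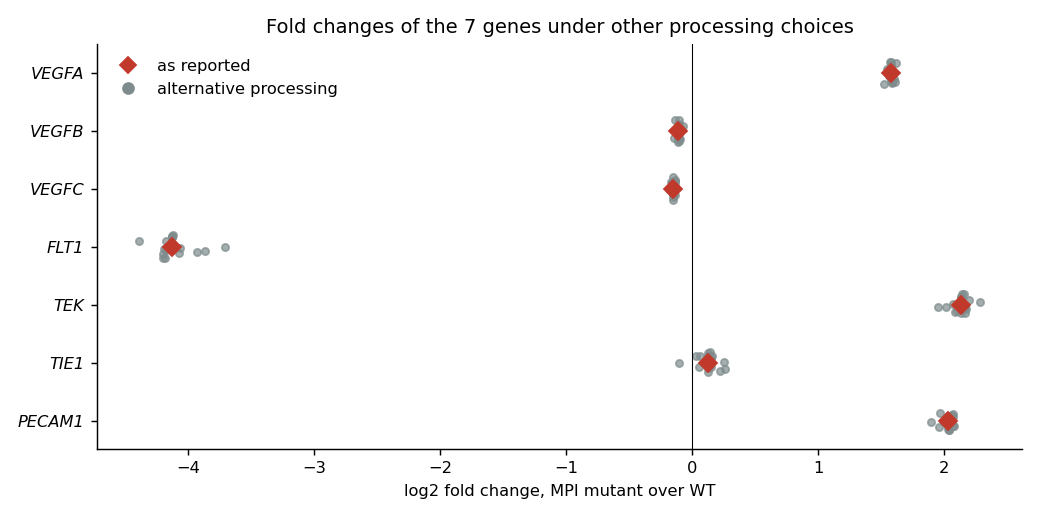
Log2 fold change, mutant over WT (x axis), of the 7 genes as reported (diamonds) and under alternative processing (circles). VEGFA (1.53 to 1.62), TEK (1.95 to 2.29) and PECAM1 (1.90 to 2.08) stay above 0, FLT1 (-4.39 to -3.70) stays below it, and TIE1 (-0.10 to 0.26) lies on both sides.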

How the data were processed

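RNA from 3 MPI mutant and 3 WT libraries of LX-2 cells was sequenced as poly(A)-selected, paired-end libraries, per the labels' protocols. Build GRCh38 and the tools STAR 2.5.2b, Trimmomatic 0.36, Subread 1.5.2, featureCounts and DESeq2 are listed in the submitters' processing notes, and the annotation release and strand setting of the counting are not given there. The table the authors deposited holds a normalised signal per gene and library, with their log2 fold change, p-value and adjusted p. Each signal is a count of reads divided by a size factor: 100% of values came out as whole reads within 0.01 of a read. The 17911 listed genes all had a mean of at least 9.83, so genes with lower means were not analysed here. Of the gene IDs, 17828 matched GENCODE release 29, and 22 symbols written as dates were replaced from it. Fold changes are stated from a new fit, not from the authors' columns.

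Values were tested as log2(value + 1) with limma 3.58.1 (limma-trend, robust) in R 4.3.3 for 17893 genes (mean 10 or more), with Benjamini-Hochberg adjustment and a threshold of 0.05. All 7 genes passed that filter. The alternatives were edgeR 4.0.16 and DESeq2 1.42.0 on recovered reads, TMM and upper-quartile rescaling, pseudocounts of 0.5 and 5, no filter on low values, a minimum mean of 50, a threshold of 0.01, the authors' columns, a replicate block, and leaving out each library or both libraries numbered 1. Same-numbered libraries deviated together (correlation of deviations from the group means 0.545, 0.189 and 0.276 for numbers 1 to 3). The replicate number was therefore tried as a block among the alternatives, while the reported fit used genotype only and ignored this pairing. The pairing comes from the data, and unlike numbers 2 and 3 correlated as well (0.299 and 0.168).

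The genes and lists were chosen with earlier results of these data known. Genes were named by rule: all members of the VEGF, VEGF receptor and angiopoietin lists, in other lists the largest called changes among genes averaging 100 or more in either genotype, those against the list's majority and the most abundant gene that did not pass, markers by level, the 3 most similar patterns, and called neighbours. Outside this rule, NOS3, VWF, THY1, ACTA2, LUM, LYZ, EGLN3 and PGK1 were named as well. The comparison of libraries numbered 1 and the gene length used for levels per kb were chosen after the data were examined.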

Additional observations from a re-analysis of the deposited data

How the results depend on the processing

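Under the alternatives tried, VEGFA stayed within 1.53 to 1.62, TEK within 1.95 to 2.29, PECAM1 within 1.90 to 2.08 and FLT1 within -4.39 to -3.70 on the log2 scale. A pseudocount of 5 gave -3.70 for FLT1 and 1.90 for PECAM1, since it shrinks changes of low genes. VEGFB did not pass in any alternative (limma, edgeR or DESeq2 adjusted p from 0.0991 to 0.413), and TIE1 did not either (0.102 to 0.879). VEGFC passed with the replicate block (-0.15, limma adjusted p = 0.0350), with upper-quartile rescaling (-0.18, 0.0361) and without both libraries numbered 1 (-0.16, 0.0122); the cause was not tested. Over all genes, 2866 rose and 2963 fell. These counts were 4494 and 4410 with the replicate block, 4640 and 4218 in edgeR with the block, 4989 and 4788 without both libraries numbered 1, 1513 and 1799 at an adjusted p under 0.01, and 1749 to 4415 and 2036 to 4291 on leaving out 1 library. PGK1, a HIF target at 0.0035 (limma adjusted p = 0.992), passed as lower in the mutant without mutant replicate 1 (-0.26, 0.0200) and without both libraries numbered 1 (-0.18, 0.00153); leaving out 1 library gave -0.26 to 0.14. Depth limits FLT1 in the mutant, PECAM1 in WT, and FLT4 and ANGPT4 in general.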

Other observations

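Genes that start within 500 kb of each gene described above were read from the same table. Around VEGFA, 22 such genes were tested, of which 4 rose (LRRC73, POLR1C, TMEM63B and HSP90AB1) and 3 fell (DLK2, POLH and NFKBIE). HSP90AB1, a chaperone gene there, measured 48911 ± 7555 in the mutant and 35394 ± 3143 in WT (log2 fold change 0.46 ± 0.13, limma adjusted p = 0.0235). Around FLT1, 4 were tested: POMP, a proteasome assembly factor gene, rose, with 4982 ± 643 in the mutant and 3963 ± 293 in WT (log2 fold change 0.32 ± 0.10, limma adjusted p = 0.0440), and PAN3 and SLC46A3 fell. Around TEK, 5 were tested, and MOB3B rose, with 403 ± 7.88 in the mutant and 278 ± 25.9 in WT (log2 fold change 0.54 ± 0.10, limma adjusted p = 0.00429). Around PECAM1, 17 were tested, of which 4 rose (ERN1, TEX2, MILR1 and SMURF2) and CD79B fell. SMURF2, a ubiquitin ligase gene of the TGF-β pathway, measured 9049 ± 549.6 in the mutant and 6054 ± 478 in WT (log2 fold change 0.58 ± 0.082, limma adjusted p = 0.00104). Around VEGFB, 27 were tested, and 1 rose (NRXN2) and 8 fell (C11orf95, MARK2, NAA40, MACROD1, TRPT1, DNAJC4, PLCB3 and GPR137). Around TIE1, 21 were tested, and ELOVL1 rose and PTPRF, a receptor phosphatase gene, fell, with 13324 ± 1164 in the mutant and 16237 ± 859.7 in WT (log2 fold change -0.29 ± 0.084, limma adjusted p = 0.0298). Around VEGFC, 2 were tested and neither passed. The share called is 32.6% over all tested genes.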
